A study of Mus musculus with 9 samples.

Results

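The drug-naive libraries are 3 of the 9 RNA-seq libraries of the series, chosen by their titles, and they give the baseline of the accumbens preparation before any cocaine group enters. They came from male C57BL/6 mice labelled as wild type and cocaine-naive, whose age the labels do not give. Punches of the nucleus accumbens, the ventral part of the striatum, were pooled from 2 to 3 mice, dissociated with papain and sorted for binding of a fluorescent antibody against choline acetyltransferase (ChAT), which synthesises acetylcholine, and the labels call the result cholinergic interneurons. Whether the libraries came from separate pools is not stated, so the spread between them may be technical. With 1 group of 3 libraries no test was made, since even a paired exact permutation test over 3 libraries cannot go below p = 0.25 (two-sided), and all values below are descriptions.

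The nucleus accumbens is made up mainly of medium spiny neurons, GABA-releasing projection neurons that respond to dopamine through D1 or D2 receptors. Cholinergic interneurons are a small minority that shape how these neurons respond. Around the neurons lie astrocytes, which clear glutamate and potassium, microglia, the resident immune cells, oligodendrocytes, which make myelin, and the cells of blood vessels. A bulk library adds up the RNA of all cells it holds, so fewer cells of a type and less RNA per cell cannot be told apart.

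Total counts were 6930527, 4471675 and 10667056 in replicates 1, 2 and 3. Mitochondrial genes took 19.2%, 27.0% and 17.1% of them, and 5 gene models with repeat-like counts took 12.0%, 11.6% and 10.8%. Levels are given as multiples of background. As background served 1092 olfactory receptor genes, whose counts were summed and divided by their summed exonic kb. It was 16.4, 6.09 and 21.2 counts per kb, and each gene's count per exonic kb was divided by it within its own library, so that levels of different genes can be compared. The brain makes little or no olfactory receptor RNA. Single olfactory receptor genes had medians of 0.975, 0.941 and 0.955, and 99% of them lay below 2.60, 2.72 and 2.76. A set of 40 genes restricted to other tissues, such as liver, testis, muscle and retina, stood higher, at medians of 1.82, 1.81 and 1.98, and 1 of the 40, the pancreatic trypsinogen gene Prss1 (3.57, 3.67 and 3.16), exceeded 3 in every library. A gene is called here when its multiple exceeds 3 in all 3 libraries, which held for 3608 of 21883 protein-coding nuclear genes (16.5%). Multiples above 3 are therefore not by themselves a mark of expression in the accumbens, whereas 0 of the 40 tissue-restricted genes exceeded 5 in every library, against 1079 protein-coding genes (4.93%). A multiple above 10 in every library was reached by 219 genes (1.00%), and one above 30 by 25 genes (0.114%). Counts of called list members below are to be read beside the 16.5%, and many lists are short.

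**Figure D1:**
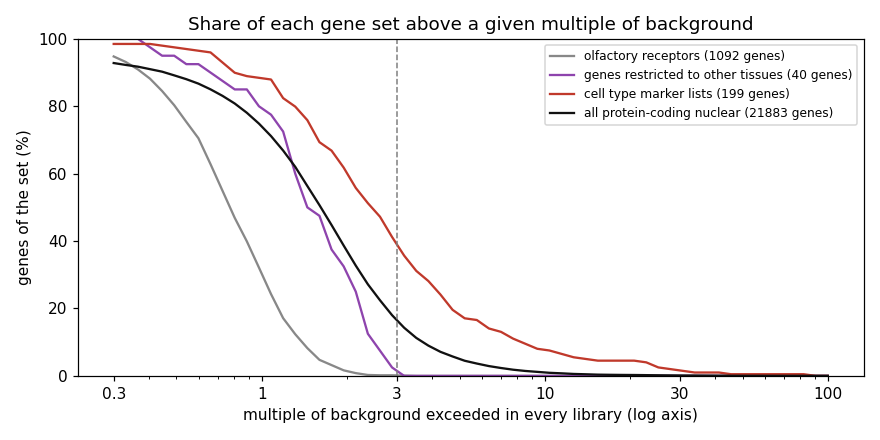
Share of the genes of 4 sets (vertical axis, percent) whose multiple of background exceeded the value on the horizontal log axis in all 3 drug-naive libraries; lines join points computed on a log-spaced grid and the dashed line marks 3. Above 3 lie 16.5% of all protein-coding genes and 2.5% of the 40 tissue-restricted genes, and the curve of the cell type markers runs above both there.

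The genes that define cholinergic interneurons were at the level of genes the brain does not use. Chat (ENSMUSG00000021919, chromosome 14, 32408203 to 32465989, GRCm38) had 126, 44 and 192 counts, which put it at 1.64 (95% Poisson interval 1.36 to 1.95), 1.54 (1.12 to 2.06) and 1.92 (1.66 to 2.21) times background. These intervals, like the others below, cover counting error only. All 3 values lay below the median of the tissue-restricted set in the same library, but each interval held that median. The order also depends on the length used. With the longest transcript as length the mean of Chat was 2.76, above the 2.31 of the tissue-restricted genes. Slc5a7, the choline transporter that feeds acetylcholine synthesis (chromosome 17, 54273590 to 54299034), was at 0.986, 1.05 and 1.13. Slc18a3, which loads acetylcholine into vesicles (chromosome 14, 32462438 to 32464850), was at 0.634, 1.09 and 0.507. The 12 genes of cholinergic identity had medians of 1.48, 1.37 and 1.35, and 0 of the 12 were called, against 16.5% of all protein-coding genes. Of the 12, 11 exceeded 3 in no library. The data thus go against the label of the sorted population as cholinergic interneurons, and the libraries are called drug-naive accumbens libraries here.

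**Figure D2:**
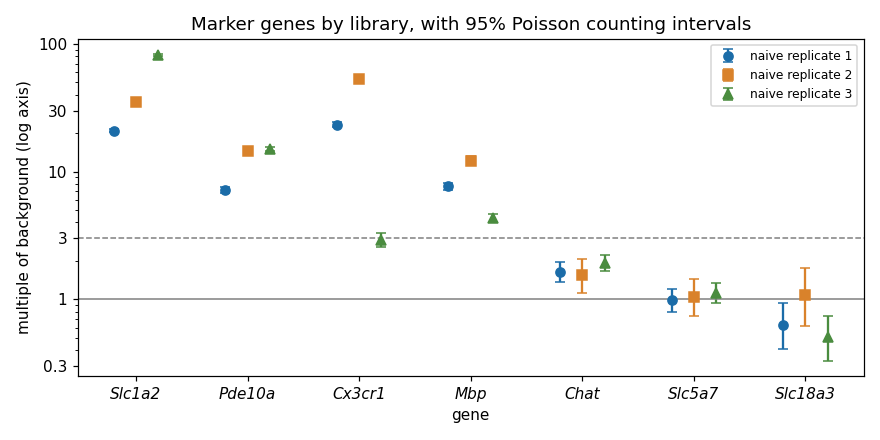
Multiple of background (log axis) of 7 marker genes in each drug-naive library; bars are 95% Poisson intervals of the count, the solid line marks background and the dashed line 3. Slc1a2, Pde10a and Mbp lie above 3 in all 3 libraries, Cx3cr1 falls to 2.92 in replicate 3, and Chat, Slc5a7 and Slc18a3 stay between 0.507 and 1.92.

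Among 17 cell type lists, those of microglia, astrocytes and medium spiny neurons stood highest on average, followed by pan-neuronal genes and oligodendrocytes. The mean of the list medians over the 3 libraries was 18.6 ± 15.5 times background for microglia (SD, n = 3), 17.4 ± 9.27 for astrocytes, 7.04 ± 2.62 for medium spiny neurons, 6.33 ± 1.78 for pan-neuronal genes and 5.48 ± 2.76 for oligodendrocytes. All lists were measured in the same 3 libraries, so these SDs do not measure the spread of a difference between lists. Such differences were not tested. The astrocyte median was 0.507, 0.461 and 7.30 times the microglial one in replicates 1, 2 and 3. Medium spiny neurons, pan-neuronal genes and oligodendrocytes ranked 5, 4 and 3 in replicate 1. They ranked 3, 5 and 4 in replicate 2, and 2, 3 and 8 in replicate 3. The astrocyte median exceeded that of medium spiny neurons in each library, by 2.14, 1.73 and 3.53 times. Within single libraries the order differed: microglia led in replicates 1 and 2, and astrocytes led in replicate 3, where the microglial median of 3.74 lay below those of medium spiny neurons (7.72) and pan-neuronal genes (6.25). Cholinergic interneurons (1.40 ± 0.0697), meningeal fibroblasts (1.17 ± 0.137) and red blood cells (median 0.885 to 1.52 across libraries) stood lowest.

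**Figure D3:**
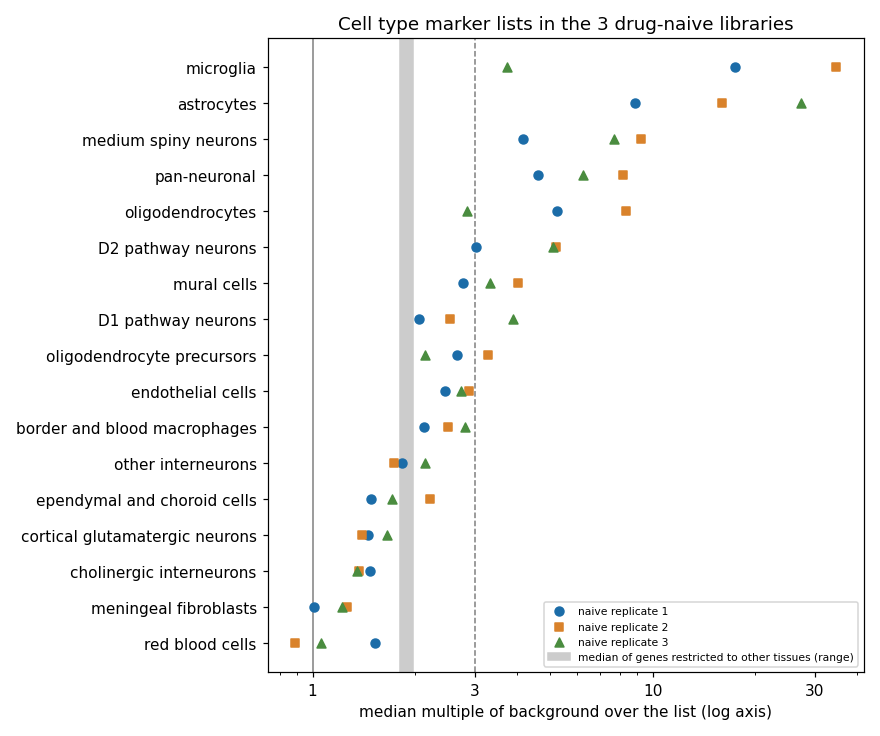
Median multiple of background over each of 17 cell type marker lists (horizontal log axis), with 1 symbol per drug-naive library; the grey band spans the medians of 40 tissue-restricted genes. Microglial medians run from 3.74 to 34.7 across the libraries and astrocyte medians from 8.87 to 27.3, while the cholinergic list stays between 1.35 and 1.48, left of the band.

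Background took 0.655% of the nuclear counts in replicate 2, against 1.03% in replicate 1 and 0.844% in replicate 3, and the multiples of most called genes were highest in replicate 2. Of the 3608 called genes, 2877 were highest in replicate 2, 662 in replicate 3 and 69 in replicate 1. For several lists the median percentile rank among the 21883 protein-coding genes of the same library is given as well, which does not depend on the background.

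Astrocyte genes were high in every library and highest in replicate 3. Slc1a2, the main astrocyte glutamate transporter (ENSMUSG00000005089, chromosome 2, 102658659 to 102790784), had 4489, 2787 and 22876 counts and stood at 20.9, 34.9 and 82.0 times background. Replicate 3 was high for this gene and replicate 1 low, and the mean of 45.9 ± 32.0 (SD, n = 3) fell to 27.9 without replicate 3. Apoe, the lipid carrier that astrocytes secrete and activated microglia also make, led the list at 85.6, 197 and 221. The proteoglycan Bcan was at 31.6, 51.5 and 61.8 and glutamine synthetase, Glul, at 23.5, 46.1 and 45.3. Of the 20 astrocyte genes 18 were called and 19 were highest in replicate 3. The exceptions to the call were the gap junction gene Gjb6 (1.97, 2.58 and 4.17) and the intermediate filament gene Gfap (2.10, 2.80 and 2.82). Aqp4, the water channel of astrocyte endfeet, was low within the list at 3.00, 6.30 and 9.25. The list median rank was 98.2%, 97.8% and 99.7% in replicates 1, 2 and 3, so the list lay near the top in each.

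Medium spiny neuron genes followed, and Adcy5, Penk and Rgs9 led the list. Adcy5, the adenylyl cyclase through which striatal dopamine receptors act, was at 41.2, 101 and 70.0 times background. Penk, the enkephalin precursor of D2 pathway neurons, was at 28.9, 69.8 and 31.2, and Rgs9, which shortens G protein signals, at 23.5, 49.3 and 33.1. Replicate 1 was the lowest library for all 20 genes of the list. The same held for all 20 astrocyte genes and all 17 genes of presynaptic release, but for 0 of 18 microglial genes. The median multiple of all called genes was also lowest in replicate 1 (4.23, 7.21 and 5.43 in replicates 1, 2 and 3). The phosphodiesterase Pde10a (ENSMUSG00000023868, chromosome 17, 8525372 to 8986648), which breaks down cyclic nucleotides in these neurons, had 1507, 1140 and 4111 counts and stood at 7.17, 14.6 and 15.1. Ppp1r1b, which encodes the dopamine-regulated phosphatase inhibitor DARPP-32, was at 8.65, 17.5 and 15.1, and Pde1b at 10.3, 22.5 and 19.0. Of the 20 genes 15 were called, and the list median rank was 90.9%, 94.3% and 95.9%. Pdyn, Tac1, Drd1 and Gpr6 were among those that were not.

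The main receptor and peptide genes of the D2 pathway read higher than those of the D1 pathway, while other members of the lists did not follow that order. The ratio of the D2 to the D1 list median was 1.47, 2.06 and 1.31. With the longest transcript as length the 2 lists lay closer together. The mean of the list medians was then 5.16 for D2 and 4.50 for D1, against 4.44 and 2.82 with the exonic length used here. Drd2 stood at 4.92, 9.55 and 7.65 times background and Drd1 at 1.55, 2.35 and 3.71, a ratio of 3.17, 4.05 and 2.06. Drd1 lay below the tissue-restricted median in replicate 1. The adenosine receptor gene Adora2a, which marks D2 pathway neurons, was at 3.02, 5.20 and 5.09. Tac1, the substance P precursor, was at 2.05, 2.71 and 4.04 and Pdyn, the dynorphin precursor, at 2.73, 3.81 and 5.46, both of the D1 pathway. Penk exceeded Tac1 by 14.1, 25.8 and 7.70 times, so the ratio was above 1 in every library but varied between them. Chrm4, the muscarinic receptor of D1 pathway neurons, was at 3.48, 8.44 and 8.37. The D2 pathway genes Gpr6 (1.54, 1.93 and 2.19) and Sp9 (1.08, 2.08 and 1.70) lay below Pdyn and Tac1 in every library. Of the D1 pathway genes 1 of 6 was called, near the 16.5% of all protein-coding genes, and of the D2 pathway genes 3 of 5, a difference that was not tested. Of the other dopamine receptors, Drd3 was at 2.36, 2.02 and 2.72, and Drd4 (0.633, 0.632 and 0.334) and Drd5 (0.252, 0.313 and 0.0747) lay below background in all 3 libraries.

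Most neuropeptides and interneuron markers other than Penk lay near or below the threshold. The interneuron genes Calb2 (4.21, 3.96 and 4.05), a calcium-binding protein, and Sst, somatostatin (3.05, 3.65 and 4.05), were the 2 of 11 called (18.2%, near the 16.5% of all protein-coding genes). Npy, which striatal interneurons share with Sst, was at 4.00, 2.90 and 3.08. The parvalbumin gene Pvalb (2.17, 1.74 and 2.40) and the nitric oxide synthase gene Nos1 (1.80, 1.59 and 2.14) were near the tissue-restricted median. Vip was below background at 0.917, 0.821 and 0.761. The opioid receptors Oprm1 and Oprk1 were at 2.21, 2.27 and 2.79 and at 0.782, 1.20 and 1.45.

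Nearly all genes of presynaptic release were called, and fewer of those of glutamate and GABA signalling. Of 17 genes of presynaptic release 16 were called, led by the vesicle priming factor Unc13a (11.5, 23.3 and 16.4), the complexin Cplx2 (8.46, 21.6 and 15.8) and the active zone scaffold Pclo (7.97, 20.9 and 13.2). Only Sv2b (1.71, 1.80 and 2.75) was not called. Of 22 genes of glutamate receptors and their scaffold 12 were called. The AMPA receptor subunit Gria1 was at 13.6, 31.2 and 22.9, above Gria2 in each library by 2.12, 2.58 and 1.77 times. The metabotropic receptor Grm3, which astrocytes also express, was at 10.8, 22.4 and 26.1. Of the genes of the kinase CaMKII, Camk2b stood at 11.2, 24.1 and 24.1 and Camk2a stood at 9.70, 19.3 and 18.2. The NMDA receptor gene Grin1 was at 6.00, 14.4 and 9.66. In GABA signalling 7 of 16 genes were called (43.8%, against 16.5% of all protein-coding genes) and 5 exceeded 3 in no library. The metabotropic receptor Gabbr1 led them at 10.2, 20.9 and 18.8. The GABA synthesis enzymes Gad1 (3.54, 6.09 and 6.56) and Gad2 (3.45, 6.32 and 8.01) were called. The glutamate transporter of cortical neurons, Slc17a7, was at 1.43, 1.40 and 1.09, and 0 of 11 cortical genes were called, a short list beside a share of 16.5%.

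Microglial genes were high in replicates 1 and 2 and low in replicate 3. Cx3cr1, the fractalkine receptor by which microglia are known (ENSMUSG00000052336, chromosome 9, 119901616 to 120069879), had 1717, 1450 and 279 counts and stood at 23.3 (22.2 to 24.4), 52.9 (50.2 to 55.7) and 2.92 (2.58 to 3.28) times background. The highest value was 18.1 times the lowest, and the intervals do not overlap. Its mean of 26.4 ± 25.1 (SD, n = 3) became 13.1 without replicate 2 and 38.1 without replicate 3. Ctss, a lysosomal protease, was at 138, 351 and 23.2. The complement genes C1qa and C1qb were at 47.4, 87.4 and 7.15 and at 39.9, 96.9 and 6.10, and the purine receptor P2ry12 at 25.9, 53.2 and 3.37. All 18 microglial genes were highest in replicate 2 and lowest in replicate 3. All 18 exceeded 3 in replicates 1 and 2 and 11 did in replicate 3, so 11 were called, against a background of 19.1%, 33.8% and 27.5% of protein-coding genes above 3 in replicates 1, 2 and 3. The list median rank was 99.6%, 99.4% and 81.6%. From replicate 1 to replicate 2 the astrocyte median rose (8.87 to 16.0), as did the microglial one (17.5 to 34.7). In replicate 3 the 2 lists moved opposite ways, to 27.3 for astrocytes and 3.74 for microglia. The ratio of the astrocyte to the microglial median was 0.507, 0.461 and 7.30. What sets replicate 3 apart was not tested. Csf1r and Tyrobp, at 6.22 and 9.04 in replicate 3, were still called.

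Genes of border and blood macrophages did not follow that split. Cd74, the MHC class II chaperone, was at 14.3, 29.2 and 16.8, and the class II genes H2-Ab1 and H2-Eb1 at 4.52, 7.49 and 5.32 and at 3.62, 5.41 and 6.64. Mrc1, the mannose receptor of perivascular macrophages, was at 3.17, 4.93 and 3.42. These 4 of 13 genes were called (30.8%, against 16.5% of all protein-coding genes). The monocyte genes Ccr2 (1.52, 1.53 and 1.53) and Ly6c2 (1.38, 0.959 and 1.05) lay at or below the tissue-restricted median. Of the 13 genes 6 were highest in replicate 3, where all 18 microglial genes were lowest.

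Oligodendrocyte genes shared the direction of the microglial split to a lesser extent. Mbp, myelin basic protein (chromosome 18, 82475146 to 82585637), had 1060, 629 and 782 counts and stood at 7.65, 12.2 and 4.35 times background. The myelin gene Mal was at 14.1, 26.8 and 7.76 and the enzyme Cnp at 8.59, 18.6 and 6.03. Of 16 genes 7 were called (43.8%, against 16.5% of all protein-coding genes), 14 were highest in replicate 2 and 15 were lowest in replicate 3. The list median rank was 94.6%, 92.9% and 69.7%. Trf, transferrin, lay near background at 0.755, 0.940 and 0.964. Among their precursors 3 of 10 genes were called (30% of a short list, beside the same 16.5%). They were the transcription factors Olig1 (5.88, 9.42 and 4.97) and Olig2 (3.41, 4.81 and 3.83) and the matrix gene Tnr (3.01, 3.87 and 3.39). The precursor receptor Pdgfra was at 2.80, 3.56 and 2.68.

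**Figure D4:**
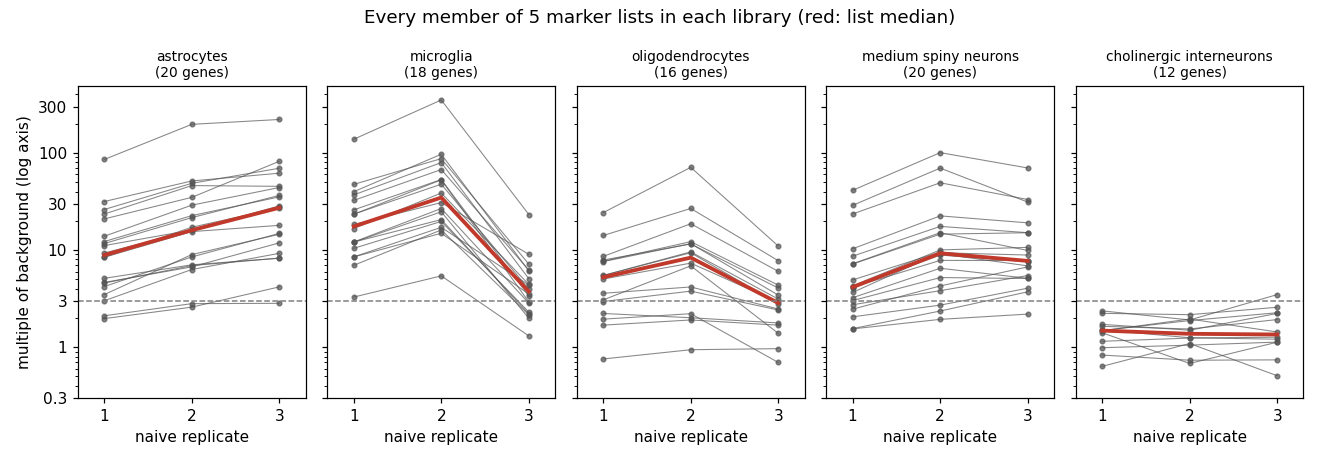
Multiple of background (log axis) of every gene of 5 marker lists in the 3 drug-naive libraries (horizontal axis, replicate number); thin lines join the values of 1 gene, the thick red line is the list median and the dashed line marks 3. All 18 microglial lines drop to their lowest value in replicate 3, 19 of 20 astrocyte lines are highest there, and 11 of the 12 cholinergic lines stay below 3 throughout. Replicates have no order; the lines only tie the points of a gene together.

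Vessel genes lay mostly below the threshold. Of 14 endothelial genes 3 were called (21.4%, against 16.5% of all protein-coding genes), the glucose transporter Slc2a1 (4.36, 7.50 and 6.61), the transporter Slco1c1 (3.67, 5.51 and 8.82), which astrocytes also express, and the cadherin Cdh5 (3.40, 3.79 and 3.71). The tight junction gene Cldn5 was at 2.42, 2.20 and 2.53. Of 10 mural genes 4 were called (40%), with the receptor Pdgfrb at 3.62, 4.47 and 6.52 and smooth muscle myosin, Myh11, at 3.24, 5.64 and 5.47. None of the 8 fibroblast genes, 9 ependymal and choroid genes or 6 red blood cell genes was called, and these lists are short beside a share of 16.5%. The adult beta-globin gene Hbb-bs was at 0.876, 1.07 and 1.04.

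Many genes that respond to stress and activity stood above background in all 3 libraries, and nearly all were highest in replicate 2, as were 2877 of the 3608 called genes. The list median rank was 91.9%, 95.1% and 82.2% for immediate early genes, 93.4%, 95.2% and 85.1% for heat shock and 94.9%, 95.9% and 91.0% for the unfolded protein response, so by rank replicates 1 and 2 lay closer together than by multiple and replicate 3 was lowest. The microglial list was highest and lowest in replicates 2 and 3 as well (34.7 and 3.74), and its part in these levels was not tested. Of 26 immediate early genes 13 were called and 25 were highest in replicate 2. The transcription factor gene Jun was at 30.8, 73.1 and 12.2 times background, Egr1 at 24.9, 49.2 and 8.12, and Fos at 12.4, 33.4 and 7.73. The neuron-restricted gene Npas4 had another order, with 2.81, 5.28 and 7.55, and was the 1 gene of the list that was highest in replicate 3. Among 15 heat shock genes 11 were called. The cytosolic chaperones Hsp90ab1 (49.0, 106 and 45.9) and Hspa8 (24.4, 69.1 and 29.3), which cells make without stress, led the list. The inducible gene Hspa1b was at 7.13, 36.0 and 3.21 and its near-identical copy Hspa1a at 3.01, 13.9 and 1.06, so that replicate 2 stood far above the others. Reads shared by these copies make the single values uncertain.

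The unfolded protein response, by which cells raise chaperones of the endoplasmic reticulum, was represented by 12 of 16 called genes. Calreticulin, Calr, was at 28.7, 58.1 and 20.7 times background, the chaperone Hspa5 (BiP) at 15.6, 40.8 and 12.4, and Hsp90b1 (GRP94) at 15.3, 29.1 and 11.7. These are resident chaperones with a high level in unstressed cells too. The transcription factor Atf4 was at 6.67, 16.2 and 6.19 and Ddit3 (CHOP), which rises under prolonged stress, at 6.11, 11.5 and 4.87. Replicate 2 was highest for all 16 genes. The interferon response, in contrast, had 0 of 18 genes called, with Stat2 at 2.44, 3.55 and 3.49.

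The promoters of the 3 highest genes of the unfolded protein response list are shown because they share a written element, and that of Fos because it stands for the immediate early genes. Each is the 250 bases before the RefSeq start of the gene on GRCm38.p6, 5′ to 3′ on the strand of the gene. Capitals in the first 3 mark matches to the endoplasmic reticulum stress element, CCAAT followed after 9 bases by CCACG on either strand, to which ATF6 binds together with NF-Y, and capitals in Fos mark matches to the core of the cyclic AMP response element, TGACG, on either strand. Hspa5 is chr2:34771840-34772089 on the plus strand, Hsp90b1 chr10:86705445-86705694 and Calr chr8:84846932-84847181 on the minus strand, and Fos chr12:85473640-85473889 on the plus strand.
Hspa5: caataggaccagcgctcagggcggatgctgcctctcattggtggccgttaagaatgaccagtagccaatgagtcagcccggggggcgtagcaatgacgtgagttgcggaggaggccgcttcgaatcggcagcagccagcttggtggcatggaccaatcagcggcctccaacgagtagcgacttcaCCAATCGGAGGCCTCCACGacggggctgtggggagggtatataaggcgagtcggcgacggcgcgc
Hsp90b1: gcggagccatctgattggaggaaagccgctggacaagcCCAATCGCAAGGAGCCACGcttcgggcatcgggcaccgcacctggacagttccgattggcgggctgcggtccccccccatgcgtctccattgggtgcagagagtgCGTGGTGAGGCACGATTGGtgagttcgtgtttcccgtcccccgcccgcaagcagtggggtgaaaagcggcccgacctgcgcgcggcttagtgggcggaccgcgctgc
Calr: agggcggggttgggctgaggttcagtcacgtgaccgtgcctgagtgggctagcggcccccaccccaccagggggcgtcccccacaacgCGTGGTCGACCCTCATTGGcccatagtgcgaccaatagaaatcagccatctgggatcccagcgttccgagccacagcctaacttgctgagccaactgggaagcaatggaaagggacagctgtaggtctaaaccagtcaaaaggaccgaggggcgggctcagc
Fos: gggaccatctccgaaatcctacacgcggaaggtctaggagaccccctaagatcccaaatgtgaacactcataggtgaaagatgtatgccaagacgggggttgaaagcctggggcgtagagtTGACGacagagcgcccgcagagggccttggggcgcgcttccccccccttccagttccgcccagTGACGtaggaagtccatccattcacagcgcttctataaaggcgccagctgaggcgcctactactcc

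Hsp90b1 holds 2 such elements, 1 on each strand, and Hspa5 and Calr hold 1 each. Of the 14 unfolded protein response genes with a RefSeq promoter, 6 hold the element (Calr, Canx, Creld2, Hsp90b1, Hspa5 and Pdia6), and all 6 were called. The same letters occur in 35 of 27025 symbols of the table (0.130%) and in 8 of 2832 called protein-coding genes (0.282%). Of the 22 immediate early genes with a promoter, 15 hold TGACG, among them Fos with 2 matches. The same letters are in 5347 of all symbols (19.8%) and 904 of the called genes (31.9%). They are also in 5 of 10 heat shock genes (50%) and 6 of 14 unfolded protein response genes (42.9%). Hspa5 is 1 of those 6, and TGACG is not marked in its sequence above. The full palindrome TGACGTCA, which contains TGACG on both strands, is in 3 of the 22 (Btg2, Dusp1 and Maff) and in 478 of all symbols (1.77%). The motifs were chosen after the levels of these lists were seen, and a match describes letters, not binding.

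**Figure D5:**
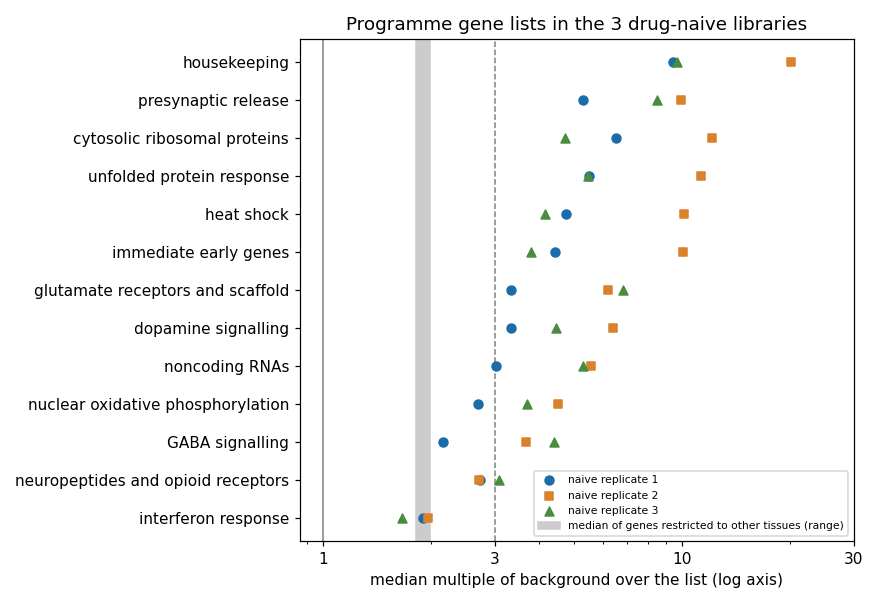
Median multiple of background over each of 13 programme lists (horizontal log axis), with 1 symbol per drug-naive library; the grey band spans the medians of 40 tissue-restricted genes. Replicate 2 is the highest library for immediate early genes (10.0), heat shock (10.1) and the unfolded protein response (11.2), whereas the interferon list (1.65 to 1.96) lies within or left of the band.

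The single genes with the highest levels came from several of these programmes, and others lie on no list. Among protein-coding nuclear genes other than ribosomal protein genes and predicted gene models, ranked by the geometric mean over libraries, Cdr1 led at 171, 525 and 179 times background. Its locus on the X chromosome also gives a circular RNA from the opposite strand, and as the strand setting of the counting is not stated the 2 cannot be told apart. Cst3, cystatin C, a protease inhibitor that microglia and astrocytes secrete, followed at 205, 385 and 63.2, with replicate 3 low as for the microglial genes. Apoe and Ctss came next, and then Actb, the cytoskeletal actin, at 74.9, 153 and 41.1. The matrix gene Sparcl1 was at 41.0, 78.1 and 126, high in replicate 3 as for the astrocyte genes. Further genes of the first 20 that lie on no list included Sfpq (42.7, 112 and 56.9) and Ptms (36.3, 75.1 and 54.9). Others were the huntingtin-associated gene Hap1 (28.4, 84.8 and 62.1) and the splicing-related gene Luc7l3 (36.6, 87.4 and 37.3). The calmodulin gene Calm2 (37.3, 82.4 and 38.2) and the lysosomal gene Psap (34.9, 72.3 and 38.5) were also among them. So were Map7d1 (38.6, 89.0 and 41.4) and Col6a1 (29.7, 72.7 and 60.7). The last were Crocc (27.6, 94.5 and 47.7) and Inf2 (34.2, 73.7 and 40.1). Of the 219 genes above 10 in every library, 43 are on a list and 18 are predicted gene models, and 9 of the 43 are astrocyte genes, 4 medium spiny neuron genes, 7 housekeeping genes and 1 each microglial and oligodendrocyte genes.

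All 16 housekeeping genes were called, with Eef1a1 at 53.8, 119 and 26.3 and Hprt at 3.37, 6.88 and 3.29. Of 79 cytosolic ribosomal protein genes 51 were called and 74 were highest in replicate 2, with Rplp1 at 58.7, 165 and 25.1. By rank the ribosomal list was not highest there, at 96.6%, 96.4% and 88.4%. Many of these genes have near-identical processed copies, which can split their reads. Of 83 nuclear genes of oxidative phosphorylation 37 were called, with the ATP synthase subunit Atp5a1 at 8.70, 18.6 and 13.6. Among noncoding RNAs the nuclear RNA Malat1 was at 1204, 2323 and 1251 and Meg3, an imprinted RNA of neurons, at 51.6, 162 and 135, and 5 of 10 were called. The 13 mitochondrially encoded protein genes had medians of 793, 2062 and 931, led by mt-Cytb at 2145, 5138 and 2279.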

How the data were processed

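Raw counts per Ensembl gene of 3 drug-naive libraries, as deposited by the authors with no scaling, were used (52636 rows). Per the submitters' processing notes the tools were STAR 2.5.2b, HTSeq, FastQC, DESeq2 and DESeq, on the build GRCm38. Their settings, the strand setting and the annotation release are not given in the sources used here. Symbols, positions and exon unions came from GENCODE mouse release 21 on GRCm38 (52489 rows matched, 147 did not). Counts per exonic kb were divided by the density of 1092 protein-coding olfactory receptor genes, symbol Olfr plus number, in the same library. Calls need more than 3 times background in all 3 libraries. On simulated counts this called 0% of genes set at 2 times, 97.5% at 4 times and 100% at 8 times background. These were Poisson counts with the same multiple in all 3 libraries, so the shares cover counting error only. They leave out the spread between genes and libraries and give no rate of false calls. In the data 2 of 1092 olfactory receptor genes were called. Intervals are exact 95% Poisson intervals. TMM factors of edgeR 4.0.16 and size factors of DESeq2 1.42.0 (R 4.3.3) served as alternatives, with Python 3.11.15.

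The members and gene lists were chosen with earlier results of these data known. The text names the marker genes, Slc5a7 and Slc18a3, leading and low members of each list, the 20 genes with the highest geometric mean among those called with at least 50 counts in every library and 500 exonic bases (without ribosomal and predicted genes), and the 10 least variable such genes, with the 10 most variable among those above 3 times background in at least 1 library, and gives some of these in each case. Other list members are named after their values were seen. The D2 pathway gene Gpr52 had no matching row. Some list members are not reported by name here.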

Additional observations from a re-analysis of the deposited data

How the results depend on the processing

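No paired analysis was possible because the drug-naive libraries form 1 group and no groups are compared here. The count of 3608 called genes depends on the choice of background and length. It was 17537 with vomeronasal receptors as background, which themselves lay at 0.264, 0.256 and 0.251 times the olfactory density, 810 with the tissue-restricted genes, 6423 with the longest transcript as length, 8095 above 2 times and 1079 above 5 times background. It was 3881 with the median olfactory density, 3577 with at least 10 counts in every library, 2535 with the lower counting bound, and 3723 to 5352 with 1 library left out.

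With vomeronasal receptors as background the list medians became 25.7 for medium spiny neurons, 5.10 for cholinergic interneurons, 63.2 for astrocytes, 68.5 for microglia and 20.1 for oligodendrocytes, and the median over the 17 cell type lists went from 2.71 to 9.89. Slc1a2 became 167, Pde10a 44.7, Cx3cr1 96.9, Mbp 29.5 and Chat 6.19. With the tissue-restricted genes as background the medians became 3.57 for medium spiny neurons and 0.716 for cholinergic interneurons, that over the lists 1.38, Pde10a 6.20 and Chat 0.865. With the longest transcript the cholinergic median became 1.96, beside 2.31 for the tissue-restricted genes, and that over the lists 3.35. Pde10a was then at 20.02, Mbp at 14.1 and Chat at 2.76. By this length Chat lay above the tissue-restricted median, while the cholinergic list stayed below it.

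With 1 library left out the means ran from 5.93 to 8.49 for medium spiny neurons, 1.36 to 1.43 for cholinergic interneurons, 12.4 to 21.6 for astrocytes, 10.6 to 26.1 for microglia and 4.05 to 6.80 for oligodendrocytes. The microglial mean of 18.6 was 10.6 without replicate 2. For the marker genes they ran from 27.9 to 58.4 for Slc1a2, 10.9 to 14.8 for Pde10a, 13.1 to 38.1 for Cx3cr1, 6.00 to 9.93 for Mbp and 1.59 to 1.78 for Chat. The 5 highest cell type lists were the same with TMM or DESeq2 scaling per exonic kb. Such scaling divides each library by 1 constant, so it cannot reorder lists within a library. It changes only the weight of each library in the mean, so this agreement says little about the order. With the longest transcript as length, which can reorder lists, the same 5 stood highest, but astrocytes lay slightly above microglia. Without replicate 2, 4 of the 5 were among the highest, and D2 pathway genes replaced oligodendrocytes. Depth was lowest in replicate 2, where Chat rested on 44 counts and Slc18a3 on 16.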

Other observations

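X-linked genes stood lower than autosomal genes in all 3 libraries of these male mice. The 948 X-linked protein-coding genes had median multiples of 0.891, 1.08 and 1.01, against 1.82, 2.22 and 2.07 for 20675 autosomal genes. The 6 X-linked olfactory receptor genes had medians of 0.513, 0.543 and 0.441, and 5.91% of X-linked genes were called, against 17.1% of autosomal genes. The reason was not tested.

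The genes whose multiples differed least between libraries included several known from other tissues. Among genes with at least 50 counts in every library and called, the most even was Pou2f3, a transcription factor of tuft cells, at 3.29, 3.35 and 3.32. Col17a1, a collagen of skin, was at 3.44, 3.36 and 3.50, Gucy2c, an intestinal receptor, at 3.60, 3.57 and 3.72, Itih2, a liver-secreted protein, at 3.39, 3.27 and 3.35, and Cacna1s, the calcium channel of skeletal muscle, at 3.22, 3.26 and 3.37. The 10 most even genes all lay between 3.20 and 4.73. The 10 most variable genes included the microglial genes Cx3cr1, C1qb, P2ry12, Ctss, Gpr34, C1qa and C1qc and the heat shock genes Hspa1a and Hspa1b.

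Called genes had more exons than the others, with a median of 14 exon blocks and a span of 30.5 kb, against 7 blocks and 15.4 kb. By gene class, 6.73% of 5009 lincRNA genes, 6.53% of 8649 processed pseudogenes and 6.52% of 2715 antisense genes were called, against 16.5% of protein-coding genes. Short RNA classes were called more often than these, with 22.2% of snoRNA, 16.0% of snRNA, 15.0% of rRNA and 14.3% of miRNA genes. No minimum count or length was set for these calls, so short genes can pass on few counts. In replicate 2 the 1507 snoRNA genes took 0.122% of all counts and the 354 rRNA genes 0.0201%, while miRNA genes took 5.16%. Across the 3608 called genes the Spearman correlation of multiples was 0.855 between replicates 1 and 2, 0.680 between replicates 1 and 3 and 0.698 between replicates 2 and 3. Genes are not independent replicates.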
